A study of Mus musculus with 8 samples.

Results

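The genes described here are 10 transcription factor genes linked to luminal progenitors and to the alveolar, milk-producing lineage of the mammary gland. They are Elf5, Ehf, Elf3, Sox9, Sox10, Cebpb, Cebpd, Nfib, Runx1 and Bcl11a. They were chosen by name, with earlier results of these data known. Through their Entrez Gene IDs they were found as 10 of the 24594 genes in the deposited table. RNA came from luminal epithelial cells of wild type mice, labelled C57BL/6J (the study's methods also name the substrain C57BL/6JRj), with no treatment in any group. The methods give only a range of adult ages for the mice of the whole study, and the labels give none for a library. The study's text describes a sort by c-Kit into a c-Kit high fraction, which holds luminal progenitors (LP), and a c-Kit low fraction of mature luminal cells. The labels list EpCAM, CD49f and CD14 beside c-Kit as markers of the sort. Each fraction was sequenced in 4 libraries from amplified cDNA. The comparison of LP with mature cells asks which genes mark the progenitor state. The study's methods call its RNA-seq replicates biological. Neither they nor the labels say whether each library came from a separate animal or a pool. The p-values set the difference between the fractions against the spread between these libraries.

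The luminal layer of the mammary gland holds hormone-sensing cells, which carry estrogen and progesterone receptors, and progenitor cells that give rise to milk-secreting alveolar cells in pregnancy. ELF5, an ETS-family factor that acts downstream of prolactin signalling, drives alveolar differentiation, and EHF and ELF3 are its closest relatives in the epithelium-specific branch of the same family. SOX9 and SOX10 are linked to progenitor capacity, C/EBPβ is needed for alveolar development, NFIB binds at milk genes, and RUNX1 is linked to the hormone-sensing lineage.

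The LP libraries held between 5510863 and 7089597 counts and the mature libraries between 4410049 and 7791593. Levels are given as CPM, counts scaled to the same library size with edgeR's TMM factors. The fractions carried the markers of their labels. The summed level of 6 progenitor markers, Kit and Cd14 among them, was 27959 to 41492 CPM in LP and 1257 to 5336 CPM in mature libraries. The sum of 7 mature markers was 309 to 991 CPM in LP and 4386 to 6113 CPM in mature libraries. Kit encodes the protein that split the fractions, and the labels list CD14 for the sort as well, so neither difference is a finding. Mature replicate 3 stood apart. It held the 5336 CPM of progenitor markers, against 1257, 1579 and 2425 CPM in the other 3 mature libraries, and its basal marker sum was 117 CPM, against 17.6, 25.2 and 57.7 CPM. It also held 8253 CPM of the heat-shock gene Hspa1a, against 584, 346 and 1309 CPM. It was the highest mature library for 8 of the 10 genes, and values of the 10 genes and their lists that it moved strongly, and calls that it decided, are given also without it. For the lists and the levels per length this alternative was added after the values were seen. Leaving out the highest mature library raises LP over mature for those 8 genes by construction. Fits without mature replicate 3 are therefore no added support for a rise in LP. The basal marker sum in LP libraries was 37.0 to 87.0 CPM over 10 genes. The sum of 6 leukocyte markers was at most 53.1 CPM, with Cd3e at 0 in all libraries, that of 4 endothelial markers was at most 10.5 CPM with Kdr at 0, and that of 5 fibroblast markers was 7.35 to 39.1 CPM in LP and 21.7 to 174 CPM in mature libraries. In bulk RNA, fewer cells of a type and less RNA per cell cannot be told apart.

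Expression of most of the 10 genes differed between the fractions. All 10 passed the filter on low counts, Bcl11a through its LP libraries, and 8 passed an adjusted p-value of 0.05 in edgeR's quasi-likelihood test. Of these, 6 were higher in LP (Bcl11a, Sox10, Elf5, Nfib, Ehf and Cebpb) and 2 were higher in mature cells (Elf3 and Runx1), while Sox9 and Cebpd did not pass. In the background, 24.7% of the 12816 tested genes passed, 10.9% with higher levels in LP and 13.8% in mature cells. The lowest library of one fraction lay above the highest of the other for the same 8 genes, and this held for 29.5% of all tested genes. The median log2 fold change of LP over mature was 1.47 for the 10 genes and -2.85e-05 for all tested genes, and the median of its absolute value was 1.47 and 0.55. Since the 10 genes were chosen with earlier results of these data known, these shares and medians do not test them as a set. Elf5, Cebpb and Nfib belong to the progenitor gene set, and Elf3 to the mature gene set, that the study drew from these same libraries, so those sets are not independent evidence of direction. The plots of levels by library and of fold changes show these values.

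**Figure D1:**
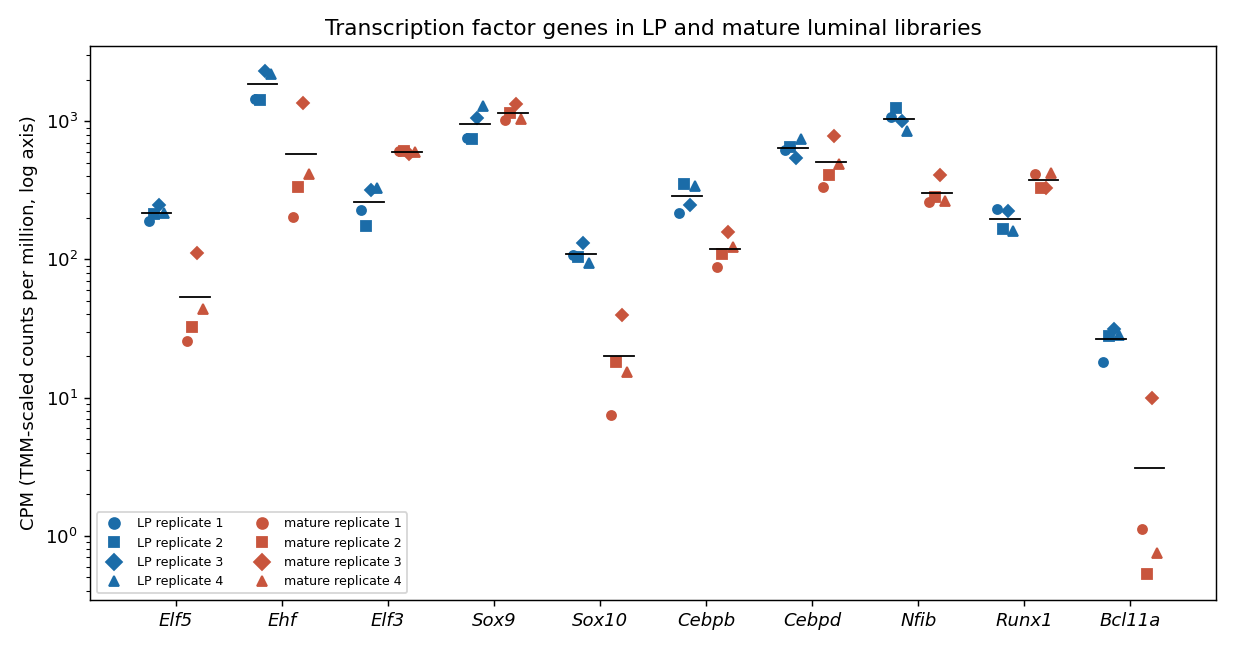
Level of each transcription factor gene in CPM (log axis) in the 4 LP (blue) and 4 mature (red) libraries, with the symbol giving the replicate number and the bar the mean of a fraction. The fractions are apart for 8 genes and overlap for Sox9 and Cebpd, and mature replicate 3 is the highest mature library for 8 of 10 genes.

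**Figure D2:**
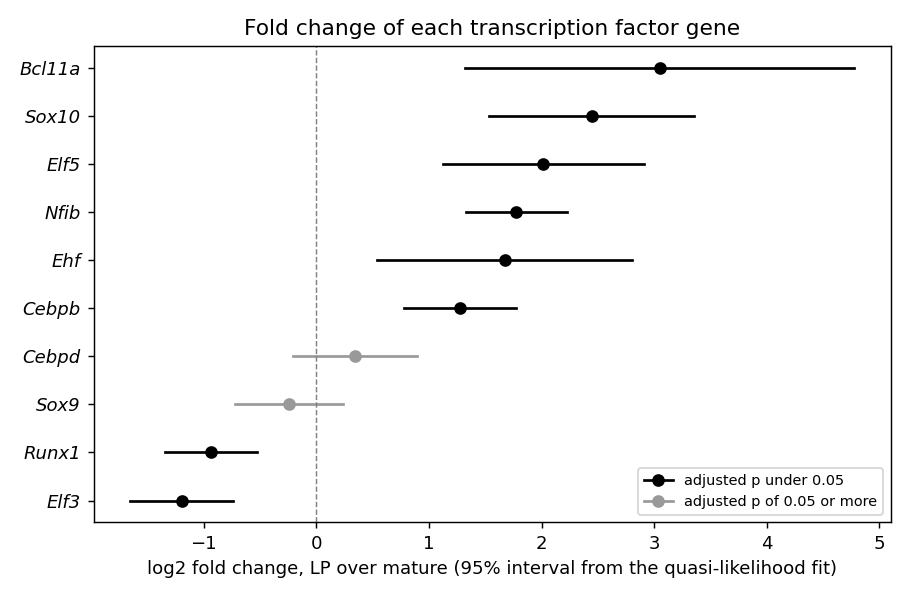
Log2 fold change of LP over mature for each gene, with the 95% interval from the quasi-likelihood fit. Values run from 3.05 for Bcl11a to -1.20 for Elf3, and the intervals of Cebpd and Sox9 (grey) include 0.

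The 3 epithelium-specific ETS genes did not move together. Elf5 and Ehf were higher in LP, and Elf3 was higher in mature cells. Elf5 lies on chromosome 2 at 103412098 to 103450989 of mm10 on the plus strand. Its level was 191, 213, 249 and 217 CPM in LP replicates 1 to 4 and 25.7, 32.3, 112 and 44.0 CPM in mature replicates 1 to 4. All 4 LP libraries lay above all mature libraries, and mature replicate 3 lay closest to LP. The mean was 217 ± 23.8 CPM in LP and 53.6 ± 39.8 CPM in mature cells (SD, n = 4 each), a log2 fold change of 2.02 with a standard error of 0.40 (edgeR adjusted p = 0.00524). Without mature replicate 3 the log2 fold change was 2.70 (edgeR adjusted p = 9.04e-05), and without mature replicate 1 it was 1.79 (edgeR adjusted p = 0.0112).

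Ehf, whose product is likewise an epithelial ETS factor, lies on the same chromosome at 103263431 to 103303275 on the minus strand. It had 1441, 1427, 2305 and 2209 CPM in LP and 203, 335, 1361 and 415 CPM in mature replicates 1 to 4. Mature replicate 3 almost reached the lowest LP library. The means were 1845 ± 477 and 579 ± 529 CPM (SD, n = 4 each), and the log2 fold change was 1.67 with a standard error of 0.51 (edgeR adjusted p = 0.0358). This call was the least stable of the 8. Leaving out any library except mature replicate 3 gave edgeR adjusted p-values of 0.0539 to 0.0921. Leaving out mature replicate 3 gave a log2 fold change of 2.57 (edgeR adjusted p = 0.000459). These fits had no replicate block, and with a block the log2 fold change was 2.03 (edgeR adjusted p = 0.00625).

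Elf3 lies on chromosome 1 at 135253574 to 135258472 on the minus strand. It had 229, 175, 316 and 329 CPM in LP and 612, 612, 579.8 and 599 CPM in mature replicates 1 to 4. The mature libraries were nearly equal, with mature replicate 3 slightly the lowest, while the LP libraries spread over a wider range. The means were 262 ± 73.3 and 601 ± 15.3 CPM (SD, n = 4 each), and the log2 fold change was -1.20 with a standard error of 0.21 (edgeR adjusted p = 0.00265). By GENCODE, 162 bases of Elf3 (7.73% of its exonic bases) overlap Gm26642 on the opposite strand. Whether the authors counted by strand is not stated, so the reads of such antisense partners cannot be told apart.

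Because each library holds all 3 genes, their ratio within a library does not depend on how libraries were scaled. The log2 ratio of Elf5 to Elf3 was -0.26, 0.28, -0.35 and -0.60 in LP replicates 1 to 4 and -4.56, -4.23, -2.37 and -3.76 in mature replicates 1 to 4. Elf5 and Elf3 thus had similar counts in LP, and Elf3 had several times more in every mature library. The means were -0.23 ± 0.37 and -3.73 ± 0.96 (SD, n = 4 each), a difference of 3.50, or 11.3-fold. The log2 ratio of Ehf to Elf3 was 2.82 ± 0.16 in LP and -0.44 ± 1.20 in mature cells, a difference of 3.26, and only mature replicate 3 of the mature libraries had more Ehf than Elf3 counts. For both ratios the exact two-sided permutation test gave p = 0.0286, the smallest that 4 against 4 libraries allow. The adjusted p was 0.0343 over the 6 pairs of genes compared. This p-value was fixed by the single-gene values, since neither gene of a pair overlapped between the fractions and the 2 moved in opposite directions. It therefore adds no evidence to them, and the ratios only give the size of the difference. The ratio of Elf5 to Ehf overlapped between the fractions, with log2 means of -3.05 ± 0.28 and -3.29 ± 0.26 (exact permutation p = 0.2, adjusted p = 0.2). This does not show that the ratio was equal.

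**Figure D3:**
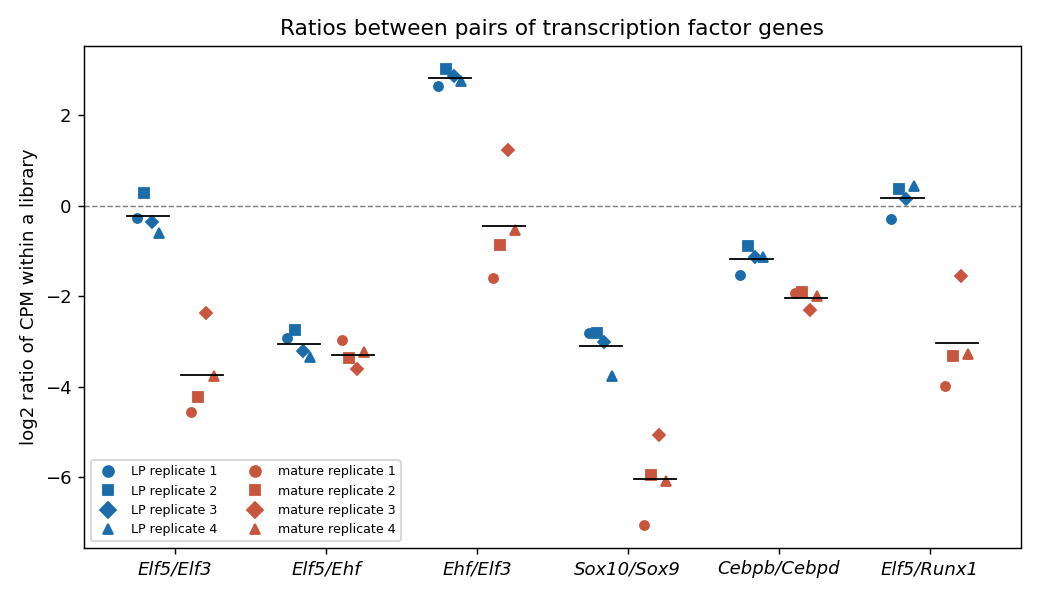
Log2 ratio of CPM of 2 genes in the same library for 6 pairs, in 4 LP (blue) and 4 mature (red) libraries, with the bar at the mean. LP lies above mature in 5 pairs, by 3.50 for Elf5/Elf3 and 0.87 for Cebpb/Cebpd, and the fractions overlap for Elf5/Ehf.

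The sequences before the start sites of Elf5 and Elf3 are shown because these related genes moved in opposite directions. RefSeq promoters of GRCm38.p6, the same build as mm10, were found for 5 of the 10 genes. Each stretch is the 250 bases before an annotated start, printed 5′ to 3′ on the strand of the gene. Capitals mark GGAA, the core that ETS factors bind, and TTGCNNAA, a form of the C/EBP site, each found on either strand (so that TTCC is GGAA read on the other strand), and no match of the 2 motifs overlaps another here. The first Elf5 start has chr2:103411848-103412097 on the plus strand before it, the second Elf5 start chr2:103423818-103424067 on the plus strand, and Elf3 chr1:135258473-135258722 on the minus strand.
Elf5, first start: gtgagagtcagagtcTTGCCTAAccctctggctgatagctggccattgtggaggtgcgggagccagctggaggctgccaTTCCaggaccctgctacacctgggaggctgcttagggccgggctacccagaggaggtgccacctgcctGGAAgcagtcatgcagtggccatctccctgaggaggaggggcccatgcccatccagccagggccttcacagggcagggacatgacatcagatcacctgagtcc
Elf5, second start: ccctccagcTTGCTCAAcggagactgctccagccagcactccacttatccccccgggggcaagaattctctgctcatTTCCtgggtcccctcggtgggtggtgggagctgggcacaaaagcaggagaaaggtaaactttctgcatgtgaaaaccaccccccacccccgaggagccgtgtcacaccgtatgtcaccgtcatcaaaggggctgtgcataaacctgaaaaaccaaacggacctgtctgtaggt
Elf3: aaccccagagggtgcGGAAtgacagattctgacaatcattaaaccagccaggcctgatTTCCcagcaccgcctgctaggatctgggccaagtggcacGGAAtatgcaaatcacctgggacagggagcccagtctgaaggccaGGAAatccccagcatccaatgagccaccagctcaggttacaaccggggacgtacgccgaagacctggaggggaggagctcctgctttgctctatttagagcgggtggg
The Elf5 stretches held 2 and 1 matches to GGAA, and the Elf3 stretch held 4. This motif is in 93.45% of 32851 promoters of the same length, with a median of 3 matches. Both Elf5 stretches held 1 match to TTGCNNAA, which is in 9.564% of these promoters, and the Elf3 stretch held 0. None of the 3 held TTCNNNGAA, a STAT-type site (7.02% of promoters), TGTGGT, a RUNX-type site (14.05%), ACAAAG, a SOX-type site (16.46%), or AGATAA, which GATA factors bind (9.988%), on either strand. A match is a description of letters and not of binding.

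Among 23 other ETS genes, 16 were tested, 1 was higher in LP and 4 were higher in mature cells, with a median log2 fold change of -0.46. Etv5, of the PEA3 group of ETS factors, was the gene higher in LP, at 18.0 ± 9.59 CPM against 1.41 ± 1.11 CPM in mature cells. Its log2 fold change was 3.62 with a standard error of 0.64 (edgeR adjusted p = 0.00291). Etv5 had 0.45 to 2.95 CPM in the mature libraries, so its fold change rests on few mature counts, and it passed the filter through LP. Elf1 (log2 fold change -1.68, edgeR adjusted p = 0.00142), Ets2 (-1.33, adjusted p = 0.00136) and Spdef (-1.29, adjusted p = 0.0426) were higher in mature cells, in the direction of Elf3. Spdef lost its call without mature replicate 3 (-1.31, edgeR adjusted p = 0.0554). Summed over all 23 genes, these ETS factors had 696 to 777 CPM in LP and 1173 to 1501 CPM in mature libraries.

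**Figure D4:**
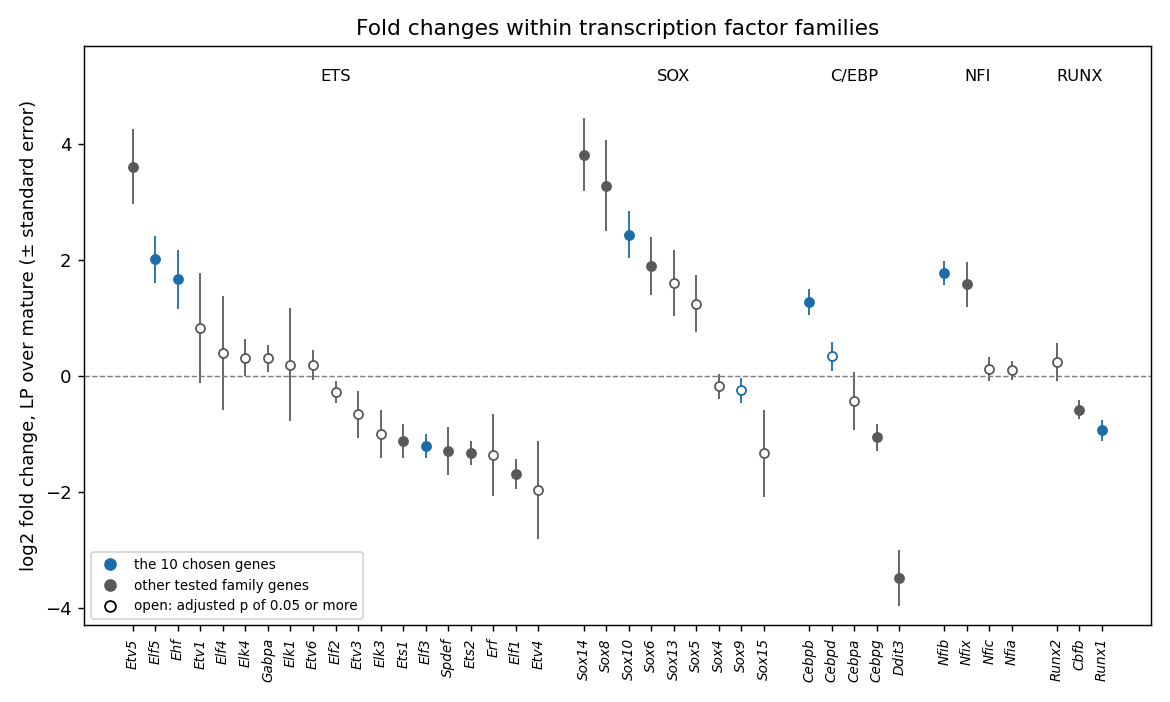
Log2 fold change of LP over mature, with its standard error, of the 10 chosen genes (blue; Bcl11a has no tested relative and is not drawn) and the other tested genes of their families (grey), with filled points for an edgeR adjusted p under 0.05. Each family holds genes on both sides of 0 except NFI, where all 4 lie above it.

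Of the SOX genes, Sox10 was higher in LP and Sox9 did not pass the test. Sox9, a SOX group E factor of many epithelial progenitors, lies on chromosome 11 at 112782210 to 112787757 on the plus strand. It had 756, 738, 1059.8 and 1294 CPM in LP and 1025, 1142, 1339 and 1045 CPM in mature replicates 1 to 4. The ranges overlapped, with LP replicates 3 and 4 inside the mature range. The means were 962 ± 266 and 1138 ± 143 CPM (SD, n = 4 each), and the log2 fold change was -0.24 with a 95% interval of -0.72 to 0.24 (edgeR adjusted p = 0.453).

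Sox10, a group E factor best known from the neural crest and also found in mammary progenitors, lies on chromosome 15 at 79154913 to 79164490 on the minus strand. It had 108, 104, 131 and 94.8 CPM in LP and 7.45, 18.1, 39.6 and 15.2 CPM in mature replicates 1 to 4. The fractions did not overlap, and mature replicate 3 was again nearest to LP. The means were 110 ± 15.6 and 20.1 ± 13.7 CPM (SD, n = 4 each), with a log2 fold change of 2.44, a standard error of 0.41 and an edgeR adjusted p of 0.00226. Without mature replicate 3 it was 3.06 (edgeR adjusted p = 0.000185). The log2 ratio of Sox10 to Sox9 was -3.10 ± 0.45 in LP and -6.04 ± 0.81 in mature cells, a difference of 2.94 (exact permutation p = 0.0286, adjusted p = 0.0343).

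Of 17 other SOX genes, 7 were tested, and 3 of them were higher in LP, while the other 4 did not pass. The median log2 fold change of the 7 was 1.61. Sox14 had 14.6 ± 7.15 CPM in LP and 1.04 ± 0.72 CPM in mature cells (log2 fold change 3.82, edgeR adjusted p = 0.0021). Sox8, the remaining group E gene, had 2.28 ± 0.24 and 0.24 ± 0.22 CPM (log2 fold change 3.29, edgeR adjusted p = 0.0123), and Sox6, a group D gene, had 20.3 ± 7.79 and 5.37 ± 3.56 CPM (log2 fold change 1.90, edgeR adjusted p = 0.0189). All 3 were far below Sox9 in CPM. Sox8 had 0 to 0.53 CPM in the mature libraries, in each below the level of 3 counts, and Sox14 had 0.30 to 1.73 CPM. The fold changes of Sox8 and Sox14 thus rest on few mature counts, and both genes passed the filter through LP. Sox6 was higher by 2.48 without mature replicate 3 (log2, edgeR adjusted p = 0.00451). Sox5, not called with all libraries, passed without mature replicate 3 (log2 fold change 1.74, edgeR adjusted p = 0.0267). The SOX genes called higher in LP then numbered 4.

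Cebpb, which encodes the C/EBP factor needed for alveolar growth, was higher in LP. It lies on chromosome 2 at 167688915 to 167690432 on the plus strand. It had 215, 352, 247 and 338 CPM in LP and 88.2, 109, 157 and 122 CPM in mature replicates 1 to 4, with no overlap. The means were 288 ± 67.1 and 119 ± 28.9 CPM (SD, n = 4 each), and the log2 fold change was 1.28 with a standard error of 0.22 (edgeR adjusted p = 0.00278). In GENCODE, 312 bases (20.7% of the exonic bases of Cebpb) overlap transcripts of Tmem189 on the opposite strand, and Tmem189 itself was higher in LP by 1.02 (log2, edgeR adjusted p = 0.00539). In RefSeq, Tmem189 lies 27370 bases from Cebpb. The share of Cebpb reads that may belong to Tmem189 was not tested.

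Cebpd, whose product responds to acute-phase signals and to involution of the gland, did not pass the test. It lies on chromosome 16 at 15887286 to 15889545 on the plus strand. It had 624, 649.8, 539.9 and 738 CPM in LP and 337, 409, 777 and 489.7 CPM in mature replicates 1 to 4. Mature replicate 3 was above all LP libraries, and the other 3 mature libraries were below them. The means were 638 ± 81.6 and 503 ± 193 CPM (SD, n = 4 each), and the log2 fold change was 0.34 with a 95% interval of -0.21 to 0.89 (edgeR adjusted p = 0.351). Without mature replicate 3 it was 0.66 (edgeR adjusted p = 0.0272), so this library decides the call. By GENCODE, 562 bases (15% of the exonic bases of Cebpd) overlap Spidr on the opposite strand. The log2 ratio of Cebpb to Cebpd was -1.17 ± 0.27 in LP and -2.04 ± 0.18 in mature cells, a difference of 0.87 (exact permutation p = 0.0286, adjusted p = 0.0343).

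Among the 4 other C/EBP genes, 3 were tested and 2 were higher in mature cells, the opposite direction to Cebpb. Ddit3, which encodes the stress-induced factor CHOP, had 25.6 ± 5.38 CPM in LP and 286 ± 191 CPM in mature cells (log2 fold change -3.48, edgeR adjusted p = 0.000859). Cebpg had 138 ± 14.8 and 287 ± 97.4 CPM (log2 fold change -1.05, edgeR adjusted p = 0.00865). Immediate-early and dissociation-response genes, which include genes that rise when tissue is digested into single cells, moved with the fraction as well. Of 15 tested, 9 were higher in mature cells and 1, Ier2, in LP (log2 fold change 1.40, edgeR adjusted p = 0.00102), with a median of -1.12. The counts were 9 and 2 without mature replicate 3. Their summed level was 1850 to 2482 CPM in LP, 4152 to 4743 CPM in 3 mature libraries and 15869 CPM in mature replicate 3. In that library the heat-shock genes Hspa1a (8253 CPM) and Hspa1b (3779 CPM) made up most of the sum. The sum therefore does not show a broad rise of the list there. The part of the cell preparation in the values of Cebpb, Cebpd and their relatives was not tested.

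Nfib had the smallest standard error relative to its fold change among the 10 genes. It encodes nuclear factor I/B, which acts with STAT5 and ELF5 at milk genes, and lies on chromosome 4 at 82290173 to 82506751 on the minus strand. It had 1074, 1249, 1005 and 846 CPM in LP and 262, 283, 406 and 267 CPM in mature replicates 1 to 4. Every LP library lay far above the highest mature library, which was mature replicate 3. The means were 1043 ± 167 and 304 ± 68.0 CPM (SD, n = 4 each), and the log2 fold change was 1.78 with a standard error of 0.20 (edgeR adjusted p = 0.000432). Of the other NFI genes, Nfix was higher in LP (163 ± 21.4 against 54.2 ± 37.8 CPM, log2 fold change 1.58, edgeR adjusted p = 0.0131, and 2.21 without mature replicate 3, adjusted p = 0.000256), and the other 2 of the 3 did not pass, with a median of 0.12 over the 3.

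Runx1 was higher in mature cells. It encodes a DNA-binding partner of CBFβ and lies on chromosome 16 at 92601466 to 92826074 on the minus strand. It had 232, 165, 225 and 160.4 CPM in LP and 412, 327, 329.7 and 425 CPM in mature replicates 1 to 4, with no overlap. The means were 196 ± 38.1 and 373 ± 52.5 CPM (SD, n = 4 each), and the log2 fold change was -0.93 with a standard error of 0.18 (edgeR adjusted p = 0.00479). Cbfb, the shared partner of all RUNX proteins, was also higher in mature cells, at 89.5 ± 13.9 against 60.1 ± 8.03 CPM (log2 fold change -0.57, edgeR adjusted p = 0.0318). This call was lost without mature replicate 3 (-0.45, edgeR adjusted p = 0.0839). It was the 1 gene called of 2 tested among the 3 listed RUNX partners and paralogues. The log2 ratio of Elf5 to Runx1 was 0.17 ± 0.32 in LP and -3.03 ± 1.04 in mature cells, a difference of 3.20 (exact permutation p = 0.0286, adjusted p = 0.0343). Elf5 and Runx1 moved in opposite directions without overlap, so this p-value was fixed by their single-gene values.

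Bcl11a had the largest fold change of the 10 genes and the lowest level. It encodes a zinc-finger factor linked to luminal progenitors and lies on chromosome 11 at 24076564 to 24173558 on the plus strand. It had 18.2, 27.7, 31.5 and 28.6 CPM in LP, from 125, 193, 190 and 206 counts. Mature replicates 1 to 4 had 1.13, 0.53, 9.96 and 0.75 CPM, from 8, 2, 69 and 5 counts. Of the mature libraries, mature replicate 3 alone was clearly above the few counts of the others. Bcl11a thus passed the filter on low counts through its LP libraries, where it was high, and its call is tied to that fraction. The means were 26.5 ± 5.80 and 3.09 ± 4.59 CPM (SD, n = 4 each), and the log2 fold change was 3.05 with a standard error of 0.78 and a 95% interval of 1.32 to 4.78 (edgeR adjusted p = 0.0169). Without mature replicate 3 it was 4.99 (edgeR adjusted p = 9.19e-05), a value that rests on 2 to 8 counts per mature library. Without replicate 1, 2 or 4 of both fractions it lost its call (edgeR adjusted p = 0.0623, 0.0762 and 0.0723). Its relative Bcl11b was not tested, with at most 0.28 CPM in any library.

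Mature replicate 3 was placed between the fractions by most of the 8 genes that passed. Its position was measured as the percent of the way, in CPM, from the mean of the other 3 mature libraries to the LP mean. This was 68.3% for Ehf, 42.6% for Elf5, 35.6% for Bcl11a, 30.3% for Runx1, 27.8% for Cebpb, 27.0% for Sox10, 17.4% for Nfib and 8.06% for Elf3, with a median of 29.1%. The 6 progenitor markers put the same library at a median of 21.5%, from 1.30% for Cd14 to 52.8% for Mfge8. Kit, which split the fractions, put it at 20.9%. It was not the mature library nearest to LP for every gene, since mature replicate 2 lay at 32.2% for Runx1 and mature replicate 4 at 40.3% for Aldh1a3, against 33.6% for mature replicate 3. The part of LP cells in the values of this library was not tested.

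**Figure D5:**
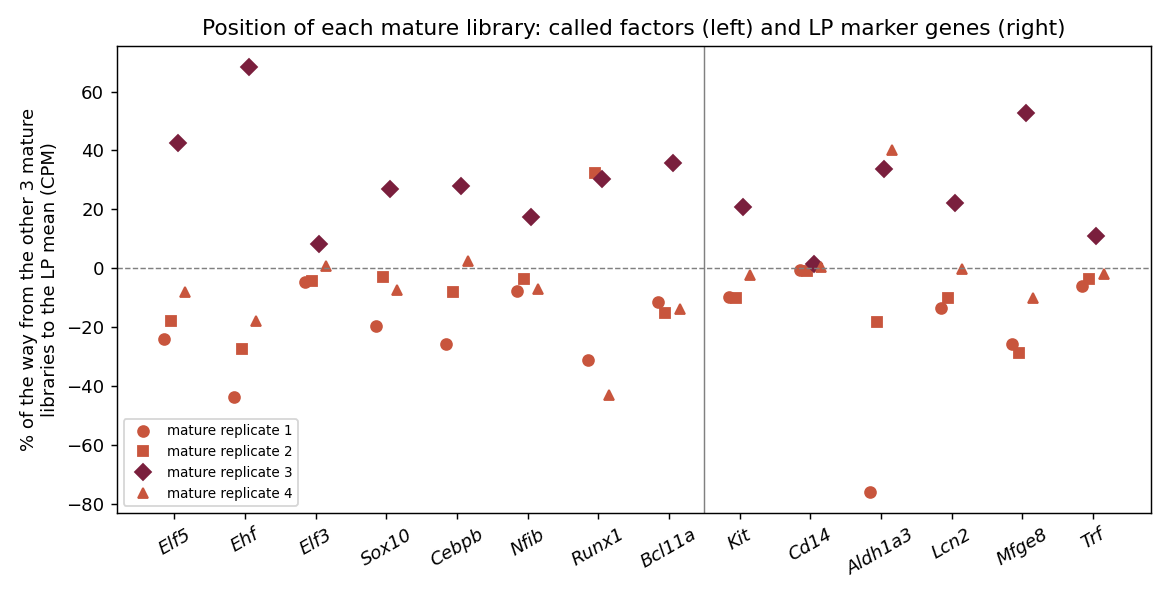
Position of each mature library as the percent of the way in CPM from the mean of the other 3 mature libraries (0) to the LP mean, for the 8 called transcription factors (left) and 6 LP markers (right). Mature replicate 3 (dark diamonds) is above 0 for all of them, from 1.30% for Cd14 to 68.3% for Ehf.

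Levels were compared between the 10 genes as mean CPM per kilobase of exon. In LP the order was Ehf at 400.4, Sox9 at 233, Cebpb at 192, Cebpd at 170.3, Elf3 at 125, Nfib at 113, Elf5 at 81.6, Sox10 at 39.4, Runx1 at 26.2 and Bcl11a at 3.49 CPM per kb. Neighbours overlapped over libraries from Ehf down to Elf5, and from Elf5 on each gene lay apart from the next. In mature cells Elf3 (287) and Sox9 (275) led and overlapped. They were followed by Cebpd (134), Ehf (126) and Cebpb (79.1), each of which overlapped its neighbour in the group. Runx1 (50.1), Nfib (33.0), Elf5 (20.1) and Sox10 (7.23) came next, again overlapping from one to the next, and Bcl11a (0.41) was lowest. Elf3 thus ranked 5 in LP and 1 in mature cells, and Ehf ranked 1 and 4. Without mature replicate 3 the mature level was 68.9 CPM per kb for Ehf, which then ranked 5 behind Cebpb at 70.7, 12.8 for Elf5 and 0.11 for Bcl11a, and no other rank changed. The aligner used does not split reads over introns, and between 0% and 19.6% of 51-base windows in these transcripts cross a junction, the latter in Elf3, so genes of many exons may be counted low. With lengths reduced to windows inside an exon, the order was unchanged in LP and differed in mature cells only by a swap of Ehf and Cebpd.

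The genes with the most similar profiles were sought among 10040 tested genes with a mean log2 CPM of at least 3, by the root-mean-square difference of log2 CPM over the 8 libraries after centring each gene. The nearest gene to Elf5 was Atp2b1, a plasma membrane calcium pump, at 0.13, followed by Acsl1, an acyl-CoA synthetase, at 0.16. Ehf was nearest to Cavin2 (0.22) and 9330175M20Rik (0.25), and Elf5 ranked 3 in its list (0.26). Elf3 was nearest to Hagh (0.13) and Hes1, a Notch target (0.14), and Sox10 to Ntn1, which encodes netrin-1 (0.23), and Efna5 (0.27). Cks1b was close to Nfib (0.18), and Runx1 was nearest to Cpsf6 (0.12) and Bcl2l1 (0.12). Cebpb was nearest to Ints7 (0.099) and to its neighbour Tmem189 (0.13), which overlaps it in GENCODE only. Bcl11a had no close match, with Anpep at 0.35 and Vwa1 at 0.42.

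Ehf and Elf5 are neighbours on chromosome 2, with 108822 bases and no other protein-coding gene of RefSeq between them. Cat, which encodes catalase and starts 2914 bases after Elf5, was also higher in LP, at 139.5 against 49.8 CPM (log2 fold change 1.48, edgeR adjusted p = 0.0246). Apip, on the far side of Ehf, did not pass (log2 fold change 0.63, edgeR adjusted p = 0.216). Beside Runx1, which was higher in mature cells, Clic6 was higher in LP by 3.10 (log2, edgeR adjusted p = 0.000479). Of 18 genes that flank the 10, members themselves not counted, 14 were tested, 5 were higher in LP and 1, Ptpn1 beside Cebpb, was higher in mature cells (log2 fold change -1.71, edgeR adjusted p = 0.00127). These flanking genes were chosen by position after the values of the 10 genes were known.

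Other regulators of the alveolar programme were divided between the fractions. Of 10 listed and tested, 4 were higher in LP and 1 in mature cells, with a median log2 fold change of 0.09. Tnfrsf11a, the receptor RANK, had 34.0 ± 9.49 CPM in LP and 5.68 ± 3.12 CPM in mature cells (log2 fold change 2.58, edgeR adjusted p = 0.002). Erbb4, a neuregulin receptor, was higher in LP by 2.27 (log2, edgeR adjusted p = 0.0228), and the factor Tfap2c by 2.19 (log2, edgeR adjusted p = 0.00971). These were 3.06 and 3.15 without mature replicate 3 (edgeR adjusted p = 0.00507 and 7.70e-05). Prlr, the prolactin receptor upstream of Elf5 in the alveolar lineage, had 445 ± 262 CPM in LP and 4546 ± 661 CPM in mature cells (log2 fold change -3.35, edgeR adjusted p = 0.000432). Elf5 and its upstream receptor were highest in opposite fractions. Prlr was also among the 7 mature markers summed above, so its direction repeats that check of the fractions.

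Of 18 milk genes, some of them targets of ELF5 and STAT5, 8 were tested and 7 were higher in LP, with a median log2 fold change of 2.82. Those not tested included Csn1s1 (mean 0.87 CPM in LP, 0.40 in mature cells), Csn2 (1.26 and 0.58) and Wap (0.25 and 0). A few libraries carried these means. LP replicate 3 had 3.32 CPM of Csn1s1, 2.66 of Csn2 and 1.00 of Wap, and LP replicate 4 had 1.94 CPM of Csn2. Mature replicate 3 had 1.59 CPM of Csn1s1 and 2.31 CPM of Csn2. No other library had more than 0.43 CPM of any of these genes. Lalba, also not tested, had 13.8 ± 20.2 CPM in LP and 0.39 ± 0.79 CPM in mature cells. Mfge8, a called milk gene, was also among the progenitor markers. The called milk genes included Xdh (4.56, edgeR adjusted p = 0.000143), Ltf (4.34, adjusted p = 0.000587) and Csn3 (4.10, adjusted p = 0.00122, and 4.71 without mature replicate 3). The 6 hormone-sensing factors were all higher in mature cells, with a median of -2.45, Cited1 (-5.47, edgeR adjusted p = 0.000114) and Foxa1 (-3.10, adjusted p = 0.0026) among them. Esr1, Pgr and Cited1 of this list were also among the mature markers. Elf3 and Runx1 shared the direction of the hormone-sensing factors, and the other 6 called genes that of the called milk genes.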

How the data were processed

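RNA from 4 LP and 4 mature luminal libraries was compared. The authors trimmed reads with cutadapt and aligned them with Bowtie2 to mm10 (versions 4.2 and 2.3.5.1 in the submitters' processing notes), and deposited raw counts per Entrez Gene ID without normalization. The counting program and its annotation are not given in the sources used here. The study's methods state fewer replicates per condition than the table holds, and all 8 libraries were used. Of 24594 IDs, 24570 matched a symbol. Genes were kept by filterByExpr, scaled by TMM and compared with the quasi-likelihood test of edgeR 4.0.16 (limma 3.58.1, R 4.3.3) and p-values were adjusted after Benjamini and Hochberg across the 12816 tested genes, at a threshold of 0.05. The common biological coefficient of variation was 0.393. Total counts per library limit the precision of low genes, 3 counts being 0.42 to 0.79 CPM. The fit was tested on simulated data. Ratios within libraries were compared by exact permutation. Replicates within a fraction differed beyond counting noise (chi-square per degree of freedom 11.95 to 89.0), so none was a copy. Alternatives were RLE and upper-quartile factors, DESeq2 1.42.0, edgeR's likelihood ratio and exact tests, other filters, a stricter threshold, a replicate block, thinned counts and libraries left out. Named genes were all 10 factors, at most 4 called genes per list by absolute log2 fold change, and the 2 most similar genes per called factor, with some of the genes not reported here. The 10 genes and the lists were chosen with earlier results of these data known, and the flanking genes, overlaps and library positions after the values were seen. Gene models came from GENCODE and RefSeq.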

Additional observations from a re-analysis of the deposited data

Results flagged for a closer look

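In 2 of 32 groups of 4 libraries examined (the levels of the 10 genes and their 6 ratios in each fraction), a single library stood further from its group than Dixon's 95% limit allows for the gap divided by the range. Chance alone flags about 1 in 20 groups. Both were in mature replicate 3. Nfib had 405.52 CPM there, with a gap of 0.851, and Bcl11a had 9.961 CPM, with a gap of 0.936. The progenitor, basal and heat-shock markers of this library are given with the results, and their part in these values was not tested.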

How the results depend on the processing

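Over 21 alternatives no direction of the 10 genes reversed. Elf5, Elf3, Sox10, Cebpb, Nfib and Runx1 passed the threshold in all 21, Ehf in 11, Bcl11a in 17 of 20 (it was not tested with at least 10 counts in every library), Cebpd in 2 and Sox9 in 0. Ehf lost its call without any single library other than mature replicate 3, and without replicate 1, 2 or 4 of both fractions (adjusted p = 0.088, 0.127 and 0.16). Bcl11a lost it without the same replicates (adjusted p = 0.0623, 0.0762 and 0.0723). Cebpd passed without mature replicate 3 (adjusted p = 0.0272) and without replicate 3 of both fractions (adjusted p = 0.0308). At an adjusted p under 0.01, 6 of the 10 genes were called, and 1564 genes in all, 643 toward LP and 921 toward mature cells. With libraries left out, between 1615 and 3414 genes were called in all, between 736 and 1668 toward LP and between 879 and 1746 toward mature cells, and the called members numbered 6 to 9, with the most without mature replicate 3. The lower counts have fewer libraries by construction.

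LP and mature libraries share replicate numbers, and libraries of the same number also share the identifier that opens their column labels, but no label says what it stands for. The correlation of same-numbered libraries, after removing the fraction means, was 0.0618 to 0.148 and over 0.1 in 2 of 4 pairs. Of the 8 libraries, 7 correlated best with their own number. The main fit has no block for this number, and these values do not show that the libraries are unpaired. With a replicate block, 3027 genes were called in place of 3161, and the same 8 members, with Bcl11a at 3.88 (adjusted p = 0.0085) and Ehf at 2.03 (adjusted p = 0.00625). Red cell markers were highest in LP replicate 4 (84.2 CPM) and mature replicate 4 (65.5 CPM). The paired sign-flip test of the ratios gave the same differences under this block, 3.50 for Elf5/Elf3, 3.26 for Ehf/Elf3, 2.94 for Sox10/Sox9, 0.87 for Cebpb/Cebpd and 3.20 for Elf5/Runx1, each with exact p = 0.125, the smallest that 4 pairs allow, so it could not pass the threshold.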
